A study of Mus musculus with 24 samples.

Results

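The genes described here are 30 genes of cholesterol synthesis and lipoprotein transport, of 55487 gene identifiers counted in each library. They were chosen by symbol, matched through their Ensembl identifiers, and fall into 25 synthesis genes (enzymes, their regulators and a sterol carrier) and 5 transport genes. RNA came from dissected brain regions of mice, all wild-type, that had undergone olfactory bulbectomy (removal of the bulbs by surgery) or a sham operation. The 24 libraries were 4 bulbectomy and 5 sham libraries of hippocampus, 3 bulbectomy and 5 sham libraries of cortex, and 2 bulbectomy and 5 sham libraries of cerebellum. The labels name no strain, sex, age or time since surgery, nor whether the tissues of equal number came from 1 mouse, so p-values measure the spread between these libraries. The series title relates bulbectomy to Alzheimer's disease and depression, and the comparisons ask how the operation and the brain region bear on the RNA of these genes.

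Cholesterol hardly crosses into the brain from the blood and is made there, by astrocytes and by oligodendrocytes during myelination. Enzymes of the mevalonate pathway build isoprenoid units from acetyl-CoA, squalene is assembled from them, and a further set of enzymes turns squalene into lanosterol and then cholesterol. The transcription factor SREBP, held in the endoplasmic reticulum by Insig proteins and escorted by Scap, switches these genes on when sterols are scarce. Astrocytes hand cholesterol on in particles carrying apolipoprotein E, loaded by the transporters Abca1 and Abcg1 and taken up by receptors such as Lrp1, and Apoe and Clu are genes with common variants linked to Alzheimer's disease.

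Library totals ran from 3255661 counted reads in sham hippocampus 1 to 138963332 in sham hippocampus 4, and from 8145624 to 20230673 in the other libraries. Region markers matched the labels in most libraries. The exceptions were sham hippocampus 1 and 2, in which 10 genes of striatal medium spiny neurons summed to 2446 and 3266 CPM (read counts scaled to the library total), against 271.7 to 413.1 CPM in the other sham and 331.1 to 452.6 CPM in the bulbectomy hippocampus libraries. Sham hippocampus 2 also held the 6 dentate granule cell markers at a summed 24.5 CPM, against 125.4 to 179.9 CPM in the other sham libraries. Sham cerebellum 1 stood apart in its gene content, with Pearson correlations of log2 CPM to other sham cerebellum libraries as low as 0.741. Results are therefore given with and without these libraries where they differ.

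The members covered a wide range of abundance, compared here per length as RPKM (read counts scaled to exon length and to the library total). In sham libraries Apoe, the main apolipoprotein of brain lipoproteins, was the most abundant at 1944 ± 621 RPKM in cerebellum, 2112 ± 454 RPKM in hippocampus and 1607 ± 212 RPKM in cortex (SD, n = 5 each). Clu, which encodes the chaperone and apolipoprotein clusterin, came next at 447 ± 113 RPKM in cerebellum, 599 ± 62.0 RPKM in hippocampus and 482 ± 55.8 RPKM in cortex. Every library held more Apoe than Clu, and more Clu than any other member.

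The 25 synthesis genes had a median level of 6.35 RPKM in sham cerebellum, 7.13 RPKM in sham hippocampus and 7.51 RPKM in sham cortex. Srebf2, the SREBP gene chiefly tied to cholesterol synthesis, was the highest of them in hippocampus at 50.9 ± 14.0 RPKM and in cortex at 54.8 ± 7.03 RPKM. In cerebellum Ebp, a sterol isomerase of the late pathway, came first at 38.7 ± 16.3 RPKM, with Srebf2 at 30.6 ± 6.40 RPKM, and the libraries of these genes overlapped there. Idi1, the isomerase of the isoprenoid building block, was lowest in every tissue, at 0.502 RPKM in cerebellum, 0.390 RPKM in hippocampus and 0.505 RPKM in cortex. Of the 29 pairs of neighbours in the order of levels, only 2 in cerebellum, 5 in hippocampus and 5 in cortex were apart in all libraries. Most of the order in the middle of the range therefore lay within the spread between libraries.

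**Figure D1:**
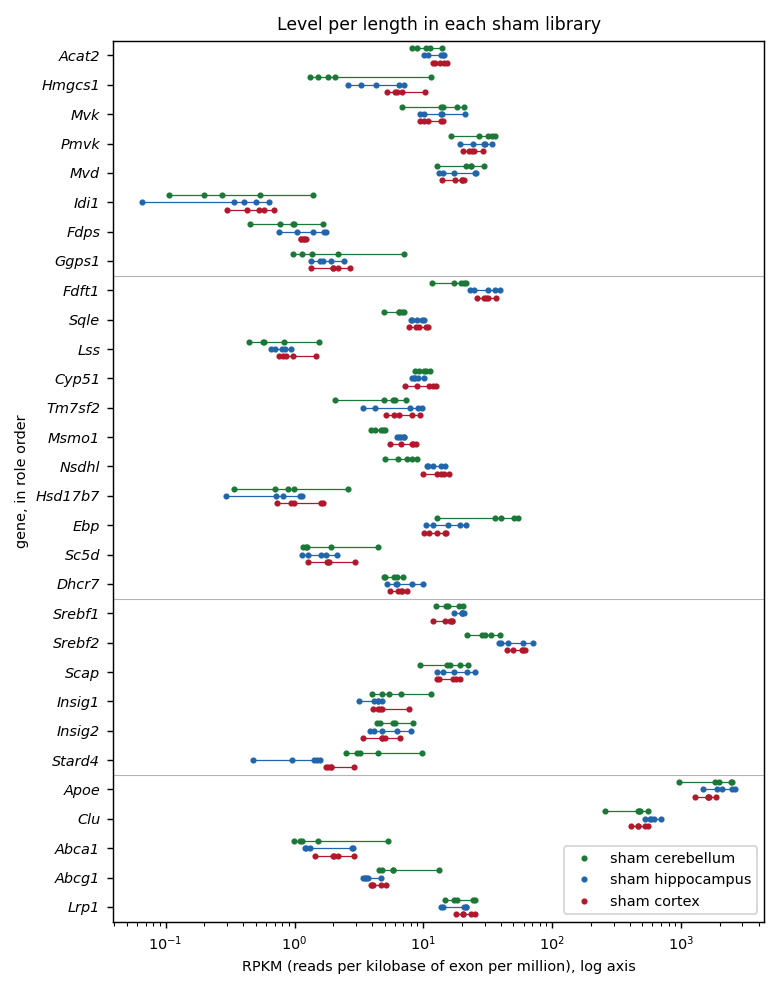
RPKM (log axis) of each of the 30 genes, in role order, in every sham library; points are libraries, lines span the lowest to the highest of 5. Apoe and Clu stand above all others, Idi1 lies lowest, and Ebp and Stard4 reach higher in cerebellum than in the other tissues.

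Some of these levels are uncertain because reads may be split between genes. How the counting treated strand and multi-mapping reads is not given. Fdps, farnesyl diphosphate synthase, shares 26.7% of its exon bases with a same-strand neighbour, and Tm7sf2, a sterol reductase, shares 12.1%. Exon bases shared with a gene on the opposite strand make up 18.3% in Fdft1, 13.2% in Scap, 12.1% in Hmgcs1 and 9.22% in Idi1. Lss, lanosterol synthase, was measured over 10787 exon bases of all its isoforms, which lowers its RPKM against a shorter isoform.

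Promoter sequence is shown for 4 members that the results below turn on, or that carry the element SREBP binds. RefSeq gives promoter windows of 250 bases before and 50 bases after a start, on GRCm38.p6, for 24 of the 30 members. The windows were searched on both strands for the sterol regulatory element TCACNCCAC, the CCAAT box ATTGG, the GC box GGGCGG and the E-box CACGTG. The members without a window are Fdps, Fdft1, Sqle, Stard4, Clu and Abcg1. In the stretches below, read 5′ to 3′ in the direction of the gene, capitals mark the sterol regulatory element and the CCAAT boxes in Hmgcs1, the CCAAT boxes in Nsdhl and Ebp, and the E-box and GC boxes in Abca1. The marked motifs do not overlap each other. Hmgcs1, which makes HMG-CoA, is on the plus strand of chr13:119690101-119690350. Nsdhl, a dehydrogenase of sterol demethylation, is on the plus strand of chrX:72918412-72918520. Ebp is on the minus strand of chrX:8193513-8193762, and Abca1, the transporter that loads cholesterol onto apolipoproteins, on the minus strand of chr4:53159896-53160145.
Hmgcs1: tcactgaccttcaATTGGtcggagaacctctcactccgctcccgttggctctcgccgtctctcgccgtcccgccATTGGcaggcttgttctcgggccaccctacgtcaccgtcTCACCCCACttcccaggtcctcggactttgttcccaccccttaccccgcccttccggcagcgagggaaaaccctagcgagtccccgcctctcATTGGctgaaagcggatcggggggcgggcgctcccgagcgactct
Nsdhl: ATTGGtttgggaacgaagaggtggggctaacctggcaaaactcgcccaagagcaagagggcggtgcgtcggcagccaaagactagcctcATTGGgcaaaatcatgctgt
Ebp: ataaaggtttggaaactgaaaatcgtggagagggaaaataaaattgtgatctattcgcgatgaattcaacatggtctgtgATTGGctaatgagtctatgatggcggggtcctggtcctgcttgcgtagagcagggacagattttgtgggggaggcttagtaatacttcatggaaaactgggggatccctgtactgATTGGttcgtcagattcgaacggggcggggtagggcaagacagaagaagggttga
Abca1: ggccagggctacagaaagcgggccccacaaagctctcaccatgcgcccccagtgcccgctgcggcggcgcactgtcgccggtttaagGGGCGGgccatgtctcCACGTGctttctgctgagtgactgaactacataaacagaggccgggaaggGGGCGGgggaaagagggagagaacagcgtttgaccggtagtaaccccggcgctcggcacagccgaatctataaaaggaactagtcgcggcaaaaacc

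Hmgcs1 was the only one of the 24 members with the sterol regulatory element in these letters, 137 bases before its start, and the element was found in 1.24% of all 32851 windows. A CCAAT box, bound by the factor NF-Y, was present in 19 of the 21 synthesis genes with a window, against 42.3% of the 10741 genes with a window and a mean of at least 1 CPM. None of the 3 transport genes with a window (Apoe, Abca1 and Lrp1) held one. A GC box was present in 19 of the 21 synthesis genes and 2 of the 3 transport genes, against 68.3% of the same expressed genes. The E-box was found in 5 synthesis genes and in Abca1, against 11.6% of expressed genes. These are matches of letters within 300 bases and do not show that a factor binds there.

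In the hippocampus no member was called after bulbectomy. Of the 29 members tested, 1 higher (Abcg1) and 2 lower (Abca1 and Lrp1) had groups that did not overlap. That is near the share of all genes, 9.48%. Abca1 had 8.56, 4.90, 7.23 and 8.84 CPM in bulbectomy hippocampus, against 29.5, 12.6, 12.7, 29.2 and 13.5 CPM in sham hippocampus. All 4 bulbectomy libraries lay below all 5 sham libraries, and sham hippocampus 1 and 4 were the highest. Sham hippocampus 1 also had the fewest counted reads of all libraries (3255661) and sham hippocampus 4 the most (138963332). The part of read depth in these values was not tested. The log2 fold change was -1.36 ± 0.32 (SE), a level 0.389 times that of sham, with an adjusted p of 0.0512 (edgeR quasi-likelihood test, Benjamini-Hochberg over 13985 genes), above the threshold of 0.05. Over 19 alternative settings the fold change ran from -1.58 to -1.07 and Abca1 was called in 7 of them. Those included the fits without sham hippocampus 2, 3 or 5, which were the lower sham libraries. Abca1 was not called without sham hippocampus 1 or 4, without any 1 of the bulbectomy libraries, or with voom. In bulk tissue a lower value may mean less RNA per cell or fewer cells of a type, and these cannot be told apart.

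Abcg1, which moves cholesterol onto lipoprotein particles already formed, had 40.7, 39.4, 38.8 and 55.0 CPM in bulbectomy hippocampus, against 25.7, 26.2, 26.9, 34.1 and 24.9 CPM in sham hippocampus. The groups did not overlap, here with bulbectomy the higher. Its log2 fold change was 0.68 ± 0.17 (adjusted p = 0.0571). Lrp1, an endocytic receptor for apolipoprotein E, had 185, 237, 236 and 204 CPM in bulbectomy hippocampus, against 381, 253, 379, 368 and 244 CPM in sham hippocampus. Again no library of 1 group lay within the other, with a log2 fold change of -0.56 ± 0.18 (adjusted p = 0.118), although sham libraries 2 and 5 were close to the highest bulbectomy libraries.

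The genes of the carrier proteins lay closer together. Apoe had 4597, 4820, 4599 and 4747 CPM in bulbectomy hippocampus, against 5591, 4452, 5280, 3156 and 4098 CPM in sham hippocampus, so the bulbectomy libraries lay inside the sham range. Its log2 fold change was 0.08 ± 0.19 (adjusted p = 0.83, 95% interval -0.28 to 0.45). Clu had 2084, 2741, 2575 and 2448 CPM in bulbectomy hippocampus, against 1960, 2384, 2124, 1998 and 1818 CPM in sham hippocampus, with overlap and a log2 fold change of 0.29 ± 0.16 (adjusted p = 0.341).

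**Figure D2:**
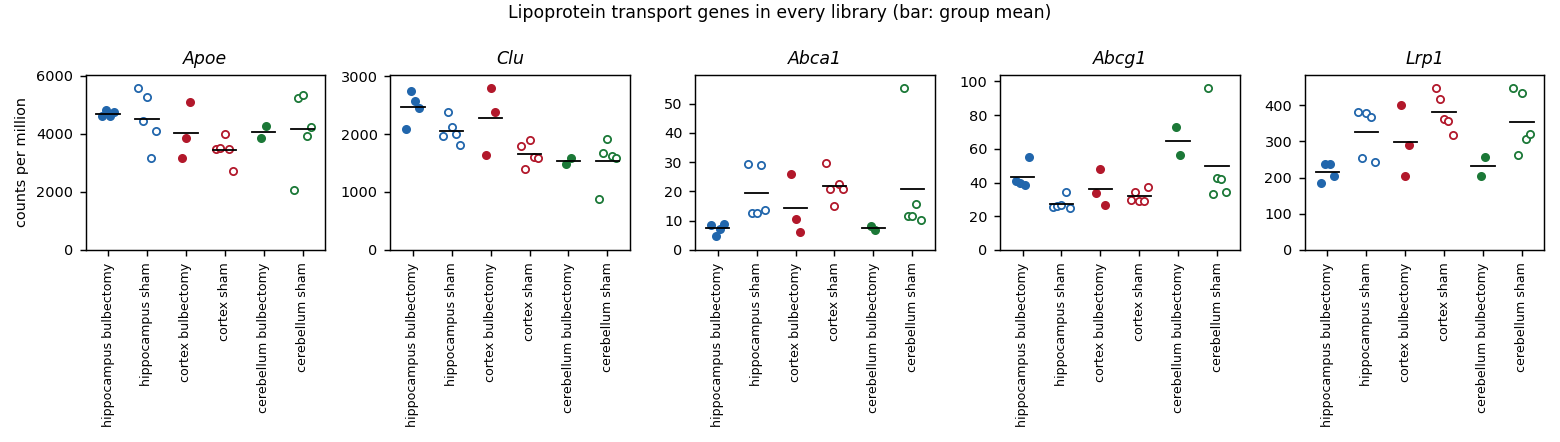
CPM of the 5 transport genes in every library, with filled points for bulbectomy, open points for sham and bars for group means. Abca1 and Lrp1 are lower and Abcg1 higher in all 4 bulbectomy than in all 5 sham hippocampus libraries, while sham cerebellum 1 is far above the other sham cerebellum libraries for Abca1 and Abcg1.

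Among the synthesis genes of the hippocampus the groups overlapped throughout. The gene of smallest p was Acat2, the thiolase that joins acetyl-CoA units at the head of the pathway. It had 36.2, 58.7, 41.5 and 56.0 CPM in bulbectomy hippocampus, against 27.7, 36.2, 36.7, 25.8 and 35.1 CPM in sham hippocampus. Only bulbectomy library 1 lay within the sham range, and the log2 fold change was 0.60 ± 0.19 (adjusted p = 0.109). Of the other mevalonate and isoprenoid enzymes, log2 fold changes were 0.51 ± 0.18 for phosphomevalonate kinase (Pmvk), 0.35 ± 0.23 for mevalonate kinase (Mvk), 0.26 ± 0.21 for mevalonate decarboxylase (Mvd), 0.50 ± 0.32 for Fdps, 0.35 ± 0.25 for geranylgeranyl diphosphate synthase (Ggps1) and -0.15 ± 0.30 for Hmgcs1. Idi1 averaged 0.460 CPM in bulbectomy hippocampus and 1.36 CPM in sham hippocampus and did not pass the filter on low counts.

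Of the 11 enzymes from squalene onward, 8 had positive and 3 negative values in the hippocampus, where 51.63% of all genes were positive. Nsdhl averaged 49.4 ± 9.14 CPM in bulbectomy hippocampus (SD, n = 4) and 35.4 ± 5.22 CPM in sham hippocampus (SD, n = 5), a log2 fold change of 0.51 ± 0.17 (adjusted p = 0.131). Tm7sf2, Ebp and the desaturase Sc5d had log2 fold changes of 0.60 ± 0.29, 0.42 ± 0.21 and 0.35 ± 0.23. Squalene synthase (Fdft1), squalene epoxidase (Sqle), Lss and Dhcr7, which reduces the last double bond in one branch of the pathway, lay between 0.02 and 0.22. The demethylation enzymes Cyp51, Msmo1 and Hsd17b7 lay between -0.16 and -0.04.

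The regulators showed no common direction. Insig2, which retains SREBP in the endoplasmic reticulum, averaged 12.4 ± 2.56 CPM in bulbectomy hippocampus (SD, n = 4) and 18.8 ± 5.93 CPM in sham hippocampus (SD, n = 5), a log2 fold change of -0.57 ± 0.24 (adjusted p = 0.209). Its relative Insig1 had 0.03 ± 0.21, the escort Scap 0.29 ± 0.20, Srebf1, the SREBP gene tied more to fatty acids, -0.21 ± 0.17, Srebf2 -0.16 ± 0.20 and the sterol carrier Stard4 -0.07 ± 0.30, all on the log2 scale.

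In all, 0 of the 29 members tested in the hippocampus were called, where 1.55% of all genes were. At an unadjusted p under 0.05 there were 4 members higher and 3 lower, or 7 of 29, where 20% of all genes passed, and 1 member higher and 2 lower had groups that did not overlap, where 9.48% of all genes did. The median log2 fold change was 0.21 over the 24 synthesis genes tested and 0.08 over the 5 transport genes, against 0.02 over all genes. The synthesis median was 0.06 without bulbectomy hippocampus 2, 0.10 without sham hippocampus 1 and 0.13 without sham hippocampus 4. It was also below 0.21 when sham hippocampus 1 and 2 were left out together. The transport median hides opposite values, since Abca1 and Lrp1 were negative and Abcg1 positive. DESeq2 called Abca1 (adjusted p = 0.00328), Abcg1 (0.0113) and Lrp1 (0.0463), and voom with sample weights called Abcg1 alone (0.0397). Without sham hippocampus 1 and 2, Abca1 had a log2 fold change of -1.30 and was called (adjusted p = 0.044), and Abcg1 had 0.64 (adjusted p = 0.0921).

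Marker genes of other tissue moved with the hippocampus comparison. The 10 thalamus and habenula markers summed to 211.7 to 410.1 CPM in bulbectomy hippocampus and 58.3 to 276.4 CPM in sham hippocampus, with 4 of 10 called higher. Astrocyte markers (10 genes, 0 called) summed to 5281 to 7920 CPM in bulbectomy hippocampus and 3569 to 5959 CPM in sham hippocampus, and myelinating oligodendrocyte markers (12 genes, 0 called) to 4713 to 6077 CPM in bulbectomy hippocampus and 3647 to 6551 CPM in sham hippocampus. No gene of these lists was at 0 in every library of a group. Their part in the values of the members was not tested.

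In the cortex no member was called either. Clu, the member of smallest p, had 1643, 2802 and 2384 CPM in bulbectomy cortex, against 1794, 1398, 1890, 1602 and 1590 CPM in sham cortex. Bulbectomy libraries 2 and 4 were above every sham library and bulbectomy library 1 was among them, with a log2 fold change of 0.44 ± 0.19 (adjusted p = 0.787). Abca1 had 25.9, 10.5 and 6.13 CPM in bulbectomy cortex, against 29.8, 20.7, 14.97, 22.5 and 20.8 CPM in sham cortex. Here too bulbectomy library 1 lay within the sham range while the other bulbectomy libraries lay below it, and the log2 fold change was -0.60 ± 0.40 (adjusted p = 0.875).

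Abcg1 had 33.7, 48.0 and 26.9 CPM in bulbectomy cortex, against 29.6, 34.4, 29.2, 28.9 and 37.2 CPM in sham cortex, and a log2 fold change of 0.17 ± 0.21. Lrp1 had 400.1, 203 and 290.3 CPM in bulbectomy cortex, against 447, 418, 360.3, 357 and 316 CPM in sham cortex, and a log2 fold change of -0.36 ± 0.22. Apoe had 3154, 3849 and 5092 CPM in bulbectomy cortex, against 3489, 3516, 3986, 3460 and 2723 CPM in sham cortex. Its log2 fold change was 0.21 ± 0.19, and for each of these 3 genes at least 1 bulbectomy library lay within the sham range.

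Of the synthesis genes in cortex, Acat2 had 32.8, 63.0 and 48.0 CPM in bulbectomy cortex, against 31.1, 30.1, 38.9, 34.2 and 36.7 CPM in sham cortex. Pmvk had 37.8, 59.6 and 76.8 CPM in bulbectomy cortex, against 38.8, 41.0, 49.6, 42.2 and 35.0 CPM in sham cortex. In both, bulbectomy libraries 2 and 4 exceeded all sham libraries and library 1 did not, and both had a log2 fold change of 0.47 with SEs of 0.20 (adjusted p of 0.789 for Acat2 and 0.798 for Pmvk). Mevalonate and isoprenoid enzymes were positive in 7 of 8 genes, squalene and sterol enzymes in 10 of 11, and regulators and carrier in 2 of 6. Of all genes 50.76% were positive. Without bulbectomy cortex 1, Hmgcs1 (-0.256), Cyp51 (-0.105) and Hsd17b7 (-0.064) turned negative. With all libraries Idi1 was the most negative at -1.02 ± 0.65, from 0 to 1.51 CPM in bulbectomy cortex and 1.05 to 2.44 CPM in sham cortex. The remaining synthesis genes lay between -0.42 for Stard4 and 0.48 for Ebp on the log2 scale.

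The edgeR quasi-likelihood test called 0 of 30 members in cortex, where it called 0.0202% of all genes, and DESeq2 and voom also called 0. At an unadjusted p under 0.05 there were 3 members, all higher, where 5.91% of all genes passed, and 0 members had groups that did not overlap, where 3.59% of all genes did. Medians were 0.18 over synthesis genes and 0.17 over transport genes, against 0.01 over all genes. With 1 library left out the synthesis median was 0.02 without bulbectomy cortex 2, 0.11 without bulbectomy cortex 1 or sham cortex 1 and 0.10 without sham cortex 2. Without bulbectomy cortex 1, Pmvk and Ebp were called higher and Abca1 lower (log2 fold change -1.42, adjusted p = 0.0308), with 573 genes called in all against 3.

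**Figure D3:**
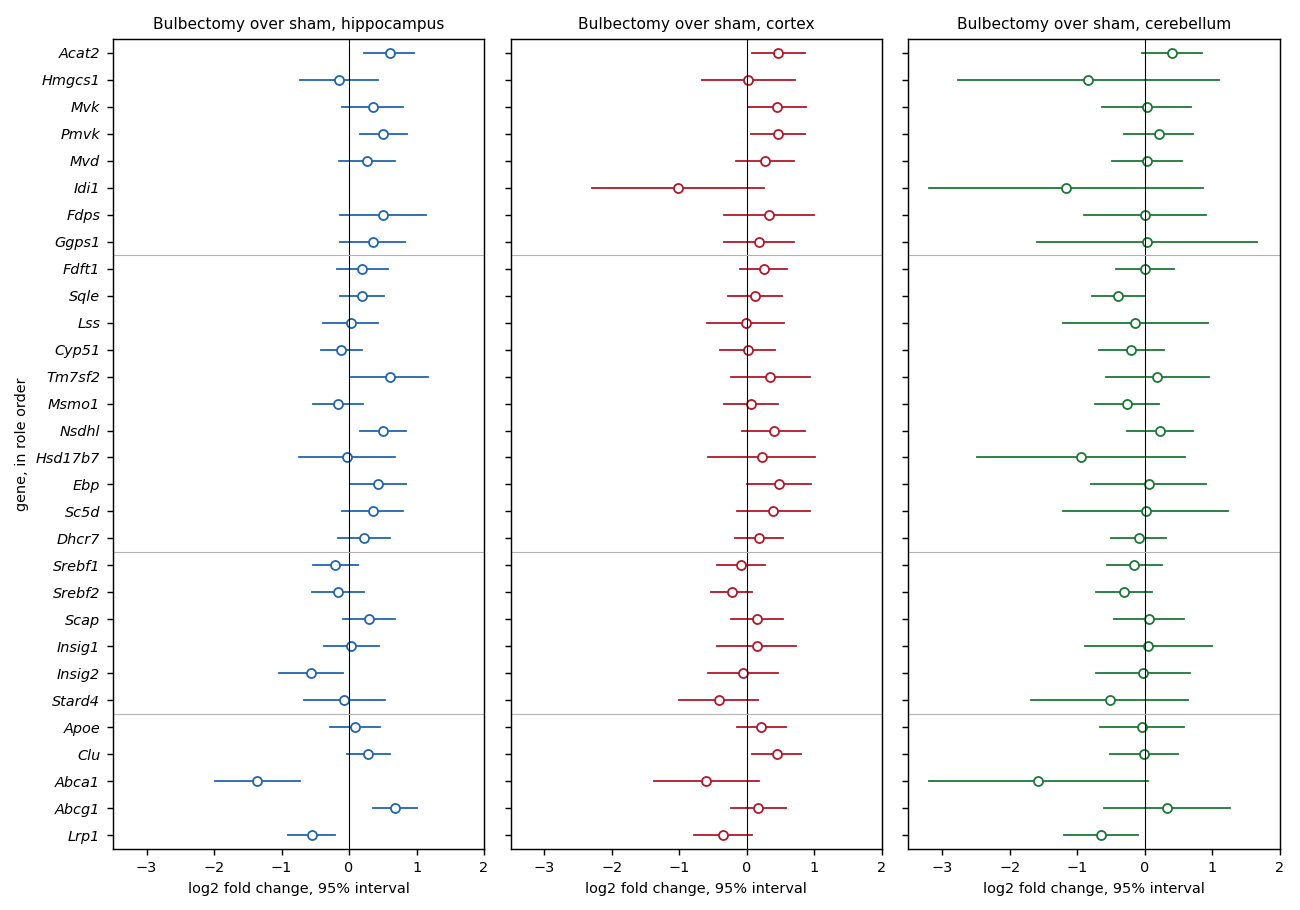
Log2 fold change of bulbectomy over sham with its 95% interval for the 30 genes in each tissue; open points were not called and no gene was called. Abca1 and Lrp1 lie left of 0 and Abcg1 right of 0 in all 3 tissues, and Idi1 has no value in hippocampus.

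In the cerebellum, with 2 bulbectomy libraries, no member was called. Lrp1 had the smallest p, with 204 and 258 CPM in bulbectomy cerebellum, against 448, 263, 433, 307 and 321 CPM in sham cerebellum. Both bulbectomy libraries were below all sham libraries, and the log2 fold change was -0.65 ± 0.28 (adjusted p = 1). Sqle had 27.5 and 26.8 CPM in bulbectomy cerebellum, against 27.4, 39.0, 35.9, 38.1 and 35.7 CPM in sham cerebellum, and a log2 fold change of -0.39 ± 0.20. Sham library 1 alone overlapped the bulbectomy libraries for Sqle.

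Abca1 had 8.17 and 6.67 CPM in bulbectomy cerebellum, against 55.5, 11.5, 11.7, 15.7 and 10.2 CPM in sham cerebellum, and a log2 fold change of -1.57 ± 0.82. The groups did not overlap, but the size rested on sham library 1, and without it the log2 fold change was -0.72 (adjusted p = 0.331). Abcg1 had 73.1 and 56.5 CPM in bulbectomy cerebellum, against 96.4, 33.1, 42.6, 42.1 and 34.6 CPM in sham cerebellum. Its log2 fold change was 0.33 ± 0.48, and 0.77 without sham library 1, which was the only sham library above the bulbectomy ones.

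Apoe had 3846 and 4264 CPM in bulbectomy cerebellum, against 2056, 5240, 5339, 3915 and 4235 CPM in sham cerebellum, and Clu had 1478 and 1584 CPM in bulbectomy cerebellum, against 881, 1666, 1913, 1627 and 1592 CPM in sham cerebellum. Sham library 1 was the lowest for both, and the log2 fold changes were -0.03 ± 0.32 for Apoe and -0.01 ± 0.26 for Clu. The synthesis genes ranged from -1.17 ± 1.03 for Idi1 to 0.40 ± 0.23 for Acat2, with 13 of 25 positive, where 42.79% of all genes were. Without sham library 1 Idi1 had -0.24, Hmgcs1 had 0.37 against -0.84 with it, and 11 of the 30 members changed sign.

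The edgeR test called 0 of 30 members in cerebellum, where it called 0.0131% of all genes, and DESeq2 and voom called 0 as well. At an unadjusted p under 0.05 only Lrp1 passed, where 2.97% of all genes did, and 2 members, Abca1 and Lrp1, had groups that did not overlap, where 10.9% of all genes did. Medians were 0.00 over synthesis genes and -0.03 over transport genes, against -0.06 over all genes.

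Across the 3 tissues, Abca1 and Lrp1 were negative and Abcg1 positive each time, as the plot of fold changes shows. Many other members kept 1 sign in all 3 tissues too. Acat2, Mvk, Pmvk, Mvd, Fdps, Ggps1, Fdft1, Tm7sf2, Nsdhl, Ebp, Sc5d, Scap and Insig1 were positive. Srebf1, Srebf2, Insig2 and Stard4 were negative. Others, such as Sqle and Dhcr7, did not keep 1 sign. In cortex Abcg1 turned to -0.084 without bulbectomy cortex 2. In cerebellum several turned sign without sham cerebellum 1: Tm7sf2 (-0.006), Ebp (-0.161), Insig2 (0.174) and Stard4 (0.012). So did Mvk (-0.141), Mvd (-0.1), Fdps (-0.156), Fdft1 (-0.101) and Scap (-0.07). The share of all genes that kept 1 sign was not counted. Whether the operation acted differently by tissue was tested in a fit of all 24 libraries. No member was called for cerebellum minus hippocampus, cerebellum minus cortex or hippocampus minus cortex, 0 of 30 each, and 0% of 16564 genes were called in each of them. At an unadjusted p under 0.05 there were 0 members in each, against 3.09%, 1.67% and 2.81% of all genes. For Abca1 the difference was -0.10 ± 0.74 for cerebellum minus hippocampus, -0.89 ± 0.76 for cerebellum minus cortex and -0.79 ± 0.68 for hippocampus minus cortex. The 95% interval of the last ran from -2.11 to 0.54, so the test leaves room for differences of the size seen within a tissue.

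The GC content of transcripts moved with the members' values. The 30 members were divided at their median transcript GC content of 50.1% into 15 of lower and 15 of higher GC. For each library the mean deviation of each set from the sham mean of its tissue was taken. In bulbectomy hippocampus the higher minus the lower set was 0.23 to 0.49, and in sham hippocampus -0.53 to 0.42, with sham 1 and 4 negative. Those are the sham libraries with the most Abca1, itself one of the lower set. Bulbectomy cortex 1, negative at -0.46, and bulbectomy cortex 4, highest at 1.16, had the most and the least Abca1 of their group. Sham cerebellum 1 was the lowest of all at -1.48.

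**Figure D4:**
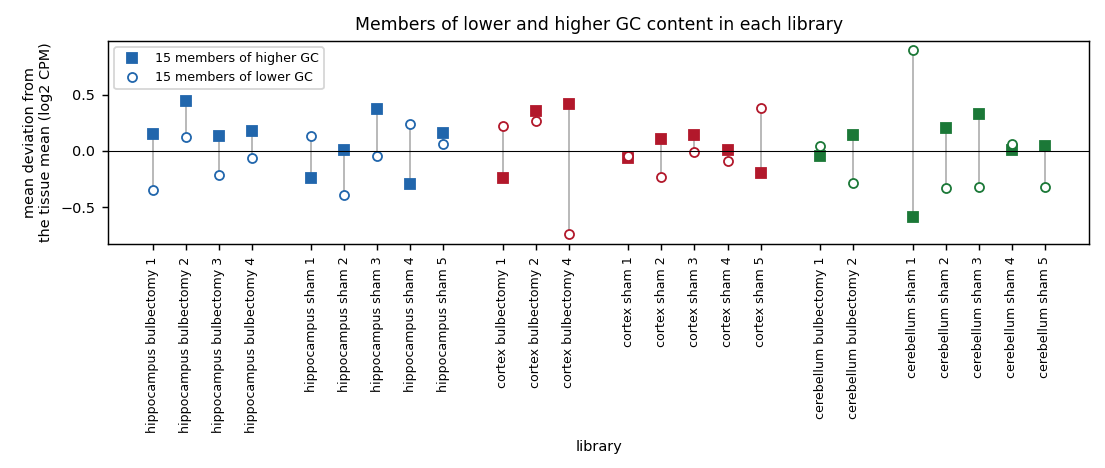
Mean deviation (log2 CPM) of the 15 members of higher GC (squares) and the 15 of lower GC (circles) in each library, coloured by tissue. The tissue mean named on the axis is the mean of the sham libraries of that tissue. Sham cerebellum 1 has its lower-GC members at 0.90 and its higher-GC members at -0.58, and bulbectomy cortex 4 has the opposite split.

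Fold changes of all genes also varied with GC content and length. In the hippocampus, fold change and GC content had a Spearman correlation of 0.28 across 13978 genes, and fold change and exon length -0.33; across the 29 members tested these were 0.11 and -0.46. For cortex the members' correlation with length was -0.65 and for cerebellum -0.47, each over 30 genes that share the same libraries. With the length and GC trend removed from the fit, Abca1 had -1.07 (adjusted p = 0.0347) and Abcg1 0.76 (adjusted p = 0.0256) in the hippocampus and both were called, while Lrp1 had -0.48 (adjusted p = 0.11).

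Between sham tissues, the sterol enzymes Fdft1, Sqle, Msmo1 and Nsdhl and the regulator Srebf2 were lower in cerebellum, and Ebp and Stard4 were higher. Against sham hippocampus, 9 of 30 members were called in sham cerebellum, 3 higher and 6 lower, where 28.4% of all genes were called, a share close to that of the members. Stard4, which carries sterol between membranes, had the smallest p. It had 54.1, 14.0, 17.1, 24.7 and 18.1 CPM in sham cerebellum, against 2.65, 5.32, 7.89, 8.78 and 8.29 CPM in sham hippocampus. No library overlapped and the log2 fold change was 1.87 ± 0.37 (adjusted p = 0.00097), or 1.36 without sham cerebellum 1, the highest library.

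Nsdhl had 14.4, 18.1, 21.2, 25.5 and 23.2 CPM in sham cerebellum, against 31.3, 30.3, 42.3, 33.9 and 39.4 CPM in sham hippocampus. The groups did not overlap and the level fell by 0.85 ± 0.17 on the log2 scale (adjusted p = 0.00119). Fdft1, which commits the pathway to sterols, had 49.2, 86.9, 82.7, 73.0 and 90.03 CPM in sham cerebellum, against 104, 134, 166, 98.0 and 153 CPM in sham hippocampus. These groups did not overlap either, and the log2 fold change was -0.84 ± 0.18 (adjusted p = 0.00156).

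Msmo1, the methyl sterol monooxygenase that acts just before Nsdhl, averaged 28.0 ± 2.85 CPM in sham cerebellum and 41.3 ± 2.26 CPM in sham hippocampus, and Sqle 35.2 ± 4.59 CPM in sham cerebellum and 49.9 ± 5.27 CPM in sham hippocampus (SD, n = 5 each). Both were called lower without overlap, at log2 fold changes of -0.63 ± 0.15 (adjusted p = 0.00427) and -0.56 ± 0.13 (adjusted p = 0.00428). Srebf2 was lower too, at 219.7 ± 46.0 CPM in sham cerebellum and 366 ± 100.2 CPM in sham hippocampus, with overlap (log2 fold change -0.80 ± 0.18, adjusted p = 0.00288). Ebp ran the other way, with 29.4, 125, 116, 83.2 and 92.8 CPM in sham cerebellum, against 24.2, 35.8, 49.6, 27.5 and 44.5 CPM in sham hippocampus. Only sham cerebellum 1 lay within the hippocampus range, and the log2 fold change was 1.23 ± 0.29 (adjusted p = 0.0044).

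The remaining enzymes from squalene onward were not called: log2 fold changes were -0.46 for Tm7sf2, -0.35 for Dhcr7, -0.06 for Lss, 0.09 for Cyp51, 0.28 for Sc5d and 0.38 for Hsd17b7. None of the 8 mevalonate and isoprenoid genes was called, with values from -0.52 for Fdps to 0.47 for Ggps1. Without sham cerebellum 1 the values of 7 of the 30 members changed sign in this contrast, among them Ggps1 (-0.39), Idi1 (-0.54, against 0.33 with it), Hsd17b7 (-0.21), Sc5d (-0.27) and Abca1 (-0.74, adjusted p = 0.0506). Among transport genes Abcg1 was higher in sham cerebellum (0.79 ± 0.26, adjusted p = 0.0284) and Clu lower (-0.49 ± 0.18, adjusted p = 0.0456), while Apoe had -0.19 ± 0.22, Abca1 0.04 ± 0.45 and Lrp1 0.06 ± 0.19. Without sham cerebellum 1 Abcg1 dropped to 0.39 (adjusted p = 0.0473), and without sham hippocampus 1 and 2 neither Abcg1 (adjusted p = 0.111) nor Clu (adjusted p = 0.165) was called, while Dhcr7 was called lower (-0.52, adjusted p = 0.043). Abcg1 also lost its call without sham hippocampus 1, 2, 3 or 5 alone, and Clu was called in only 9 of 25 settings. Medians were -0.06 over synthesis and 0.04 over transport genes, against 0.05 over all genes.

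The contrast with sham cortex uses the same cerebellum libraries. In sham cerebellum 8 of 30 members were called, 2 higher and 6 lower. Of all genes 34.7% were called here, so the share among the members was no larger. Nsdhl, with the cerebellum values above, had 28.3, 36.3, 45.0, 41.5 and 39.2 CPM in sham cortex, and was lower in cerebellum without overlap (log2 fold change -0.98 ± 0.17, adjusted p = 0.000292). Msmo1 had 29.7, 31.2, 24.2, 28.9 and 26.1 CPM in sham cerebellum, against 51.5, 34.1, 50.4, 40.9 and 53.9 CPM in sham cortex, again without overlap (-0.80 ± 0.15, adjusted p = 0.000464). Srebf2 had 158, 204, 283, 215 and 239 CPM in sham cerebellum, against 360, 428, 441, 417 and 322 CPM in sham cortex, where the groups were apart (-0.93 ± 0.18, adjusted p = 0.000695).

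Fdft1 (-0.86 ± 0.18) and Sqle (-0.66 ± 0.13) were also lower in sham cerebellum than in sham cortex without overlap, and Ebp (1.51 ± 0.30) and Stard4 (1.079 ± 0.36) were higher with overlap. Acat2 was lower with overlap (-0.43 ± 0.16, adjusted p = 0.0437), and was called in 11 of 24 settings. Stard4 lost its call without sham cerebellum 1 or sham cortex 1, 3 or 4. Of the 11 squalene and sterol enzymes 10 had negative values and Ebp was the exception, where 53.4% of all genes had positive values. No transport gene was called: Abcg1 had 0.57 ± 0.25, Apoe 0.18 ± 0.22, Clu -0.20 ± 0.18, Abca1 -0.13 ± 0.45 and Lrp1 -0.19 ± 0.19. In all, 5 members had groups that did not overlap in each cerebellum contrast, where 18.1% of all genes did against hippocampus and 25.6% against cortex.

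Hmgcs1 shows how far sham cerebellum 1 can move a value. It had 52.5, 7.04, 9.43, 8.34 and 6.03 CPM in sham cerebellum, against 31.3, 27.7, 23.97, 28.9 and 47.7 CPM in sham cortex. The other 4 cerebellum libraries were below all cortex libraries and sham cerebellum 1 was above them, so the log2 fold change was -1.01 ± 0.53 (adjusted p = 0.155). Without sham cerebellum 1, 9 members were called against cortex, with Hmgcs1, Lss and Abca1 now lower, and Stard4 (0.61) and Acat2 (-0.34) no longer called. Against hippocampus 10 members were then called, with Hmgcs1 added to the 9.

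Between sham hippocampus and sham cortex no member was called. The edgeR test called 0 of 30 members, where 3.3% of all genes were called, and DESeq2 and voom called 0 too. Srebf1 had the smallest p, with 113, 113, 118, 97.2 and 112 CPM in sham hippocampus, against 91.4, 93.8, 82.4, 93.3 and 66.6 CPM in sham cortex. The groups did not overlap and the log2 fold change was 0.35 ± 0.14 (adjusted p = 0.266). Stard4, with the hippocampus values above, had 9.78, 10.6, 10.7, 10.2 and 16.2 CPM in sham cortex, all higher than in hippocampus (-0.79 ± 0.36, adjusted p = 0.347).

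Clu, the third by p, had 0.29 ± 0.18 (adjusted p = 0.541), and Apoe had 0.37 ± 0.22. At an unadjusted p under 0.05, 2 members passed, where 13.5% of all genes did, and the same 2 had groups that did not overlap, where 6.8% of all genes did. Fold change and GC content had a Spearman correlation of 0.70 across the 30 members and 0.32 across 15125 genes in this contrast, and of 0.38 and -0.02 with the trend removed; genes share these libraries and are not independent.

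**Figure D5:**
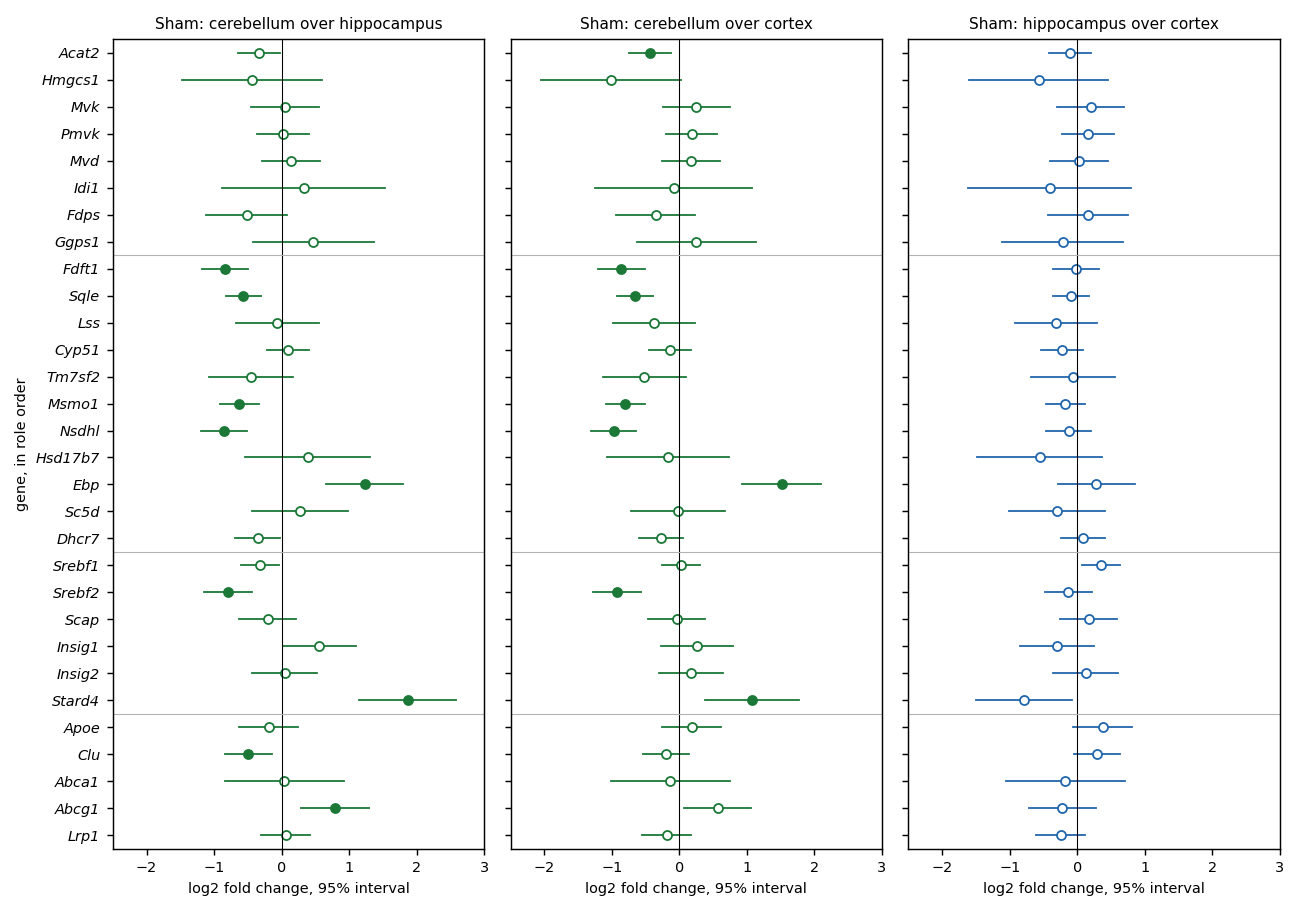
Log2 fold change with its 95% interval for the 30 genes between sham tissues; filled points were called and open points were not. Ebp and Stard4 are filled to the right, and Fdft1, Sqle, Msmo1, Nsdhl and Srebf2 to the left, in both cerebellum panels, and no point is filled for hippocampus over cortex.

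Cell type markers also differed between sham tissues. The 10 microglia markers summed to 319.6 to 909 CPM in sham cerebellum, 1040 to 2405 CPM in sham hippocampus and 1169 to 2105 CPM in sham cortex, with 9 called lower in cerebellum than hippocampus and 10 lower than cortex. The 10 astrocyte markers summed to 5347 to 7660 CPM in sham cerebellum, 3569 to 5959 CPM in sham hippocampus and 3845 to 4833 CPM in sham cortex. In cerebellum 5 of them were called higher and 1 lower than in hippocampus, and 5 higher and 2 lower than in cortex. The 12 myelinating oligodendrocyte markers summed to 4153 to 4712 CPM in sham cerebellum, 3647 to 6551 CPM in sham hippocampus and 1487 to 2156 CPM in sham cortex, with 9 called higher in cerebellum and 8 higher in hippocampus than in cortex. No marker of these lists was at 0 in every library of a group, and their part in the differences between tissues was not tested.

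The wider pathway was followed in 4 further lists. None of the 13 other genes around SREBP and sterol sensing was called in any tissue after bulbectomy, and neither were the 9 tested of 10 other isoprenoid genes, the 12 fatty acid genes under SREBP or the 24 tested of 25 other transport, storage and turnover genes. In the hippocampus their median log2 fold changes were -0.20, 0.21, -0.04 and 0.05 in that order of lists. At an unadjusted p under 0.05 there were 2 lower in the first, 1 higher in the second, 1 higher and 3 lower in the third and 2 higher in the fourth. Of all genes 20% passed that threshold. The genes of smallest p there were Rnf145, a ubiquitin ligase of sterol regulation (-0.48 ± 0.15, adjusted p = 0.103), the farnesyltransferase subunit Fnta (0.44 ± 0.15, adjusted p = 0.13) and the lipid transfer protein Pltp (0.71 ± 0.24, adjusted p = 0.132).

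Between sham tissues these lists did hold called genes. Of the 24 transport, storage and turnover genes tested, 7 were higher and 6 lower in sham cerebellum than in sham hippocampus, where 28.4% of all genes were called, and 7 were higher and 5 lower than in sham cortex, where 34.7% were. Cyp46a1, the neuronal enzyme that hydroxylates cholesterol for export from the brain, averaged 65.2 ± 17.3 CPM in sham cerebellum, 253 ± 60.8 CPM in sham hippocampus and 271 ± 34.2 CPM in sham cortex (SD, n = 5 each), with log2 fold changes of -2.02 ± 0.20 against hippocampus (adjusted p = 7.72e-07) and -2.15 ± 0.20 against cortex (adjusted p = 3.39e-07). Lpl, lipoprotein lipase, averaged 0.498 CPM in sham cerebellum, 28.2 CPM in sham hippocampus and 11.7 CPM in sham cortex, and was called lower in cerebellum in both contrasts.

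Nr1h3, the liver X receptor alpha gene, averaged 43.8 ± 15.1 CPM in sham cerebellum, 12.3 ± 2.83 CPM in sham hippocampus and 8.16 ± 1.86 CPM in sham cortex (SD, n = 5 each). It was the 1 gene of the 13 in the SREBP and sterol-sensing list called against hippocampus, where 28.4% of all genes were called. Its log2 fold change there was 1.76 ± 0.26, higher in cerebellum (adjusted p = 6.83e-05). Against cortex 4 of the 13 genes of that list were called higher, where 34.7% of all genes were called. Nr1h3 was among them, with a log2 fold change of 2.33 ± 0.27 (adjusted p = 3.32e-06). Of the 9 isoprenoid genes tested, Fnta, Fntb and Pdss1 were called higher in cerebellum in both contrasts and Coq2 lower against hippocampus. Of the 12 fatty acid genes only Fads2 was called against hippocampus and only Fasn against cortex, both lower. Beside these counts for each list, 28.4% of all genes were called against hippocampus and 34.7% against cortex. Between sham hippocampus and sham cortex 1 gene of the 4 lists was called, where 3.3% of all genes were. It was Apoc1, an apolipoprotein gene next to Apoe, at 3.601 ± 1.07 CPM in sham hippocampus and 1.33 ± 0.33 CPM in sham cortex (log2 fold change 1.44 ± 0.30, adjusted p = 0.0136).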

How the data were processed

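RNA-seq of poly(A) RNA gave 24 libraries. Per the submitters' processing notes, reads were processed with Trimmomatic, STAR and featureCounts on mm10; no version or strand setting is given there. The deposited values are raw read counts per Ensembl gene, 1 set per library, and rows naming no gene (2.62 to 9.22% of reads matched none) were left out. Of 55487 identifiers, 55227 were in GENCODE M21, which gave symbols and exon lengths.

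Tests used edgeR 4.0.16 (filterByExpr, TMM, quasi-likelihood F test) in R 4.3.3 with Benjamini-Hochberg adjustment over all genes, called at an adjusted p under 0.05. SE is the fold change divided by the root of F. Sham tissues were compared in 1 fit of 15 libraries. CPM uses TMM-scaled totals, and 3 reads set the floor. Alternatives were DESeq2 1.42.0, voom (limma 3.58.1), other scalings and filters, a trend removed, and libraries left out. Fits were tested on simulated data. Sham cerebellum and sham hippocampus libraries of equal number correlated at 0.17 to 0.721 in all 5 pairs, 4 of them best matches. Bulbectomy and sham cerebellum libraries of equal number, from different mice, correlated at 0.472 and 0.617. The correlations therefore do not identify libraries of 1 mouse.

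All 30 members are named, with values per library for the 3 of smallest p per comparison and the transport genes; of the wider lists, up to 4 called genes of smallest p, apart from some not reported here. The members and lists were chosen with earlier results of these data known. The 24 libraries include no bulbectomy library numbered 3 for cortex or cerebellum and none numbered 4 for cerebellum.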

Additional observations from a re-analysis of the deposited data

Results flagged for a closer look

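Of 120 sets of libraries of 1 gene and group, 13 held a library far from the others of its group by Dixon's criterion, which chance alone meets in about 1 in 20. Sham cerebellum 1 was that library for 7 genes. It had 52.5 CPM of Hmgcs1 where the other sham cerebellum libraries had 6.03 to 9.43, 33.4 CPM of Ggps1 (others 4.6 to 10.3), 21.6 CPM of Sc5d (others 5.68 to 9.36) and 54.1 CPM of Stard4 (others 14 to 24.7). It also had 55.5 CPM of Abca1 (others 10.2 to 15.7) and 96.4 CPM of Abcg1 (others 33.1 to 42.6), and 27.4 CPM of Sqle, below the others at 35.7 to 39.

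Bulbectomy hippocampus 4 stood above its group for Ggps1, at 14.8 CPM against 8.69 to 9.23, and for Abcg1, at 55.0 CPM against 38.8 to 40.7. Sham hippocampus 4 was above its group for Abcg1, at 34.1 CPM against 24.9 to 26.9, and below it for Srebf1, at 97.2 CPM against 112 to 118. Sham cortex 5 was above its group for Insig1, at 24.1 CPM against 12.6 to 14.7, and for Stard4, at 16.2 CPM against 9.78 to 10.7. The part of GC content or dissection in these values was not tested.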

How the results depend on the processing

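For bulbectomy hippocampus, 3 members were called by DESeq2, 1 by voom, 1 with no filter, 2 with the length and GC trend removed and 1 without sham hippocampus 1 and 2, and 0 to 1 with 1 library left out; the transport median was -0.26 with the trend removed and -0.067 to 0.131 with 1 library left out. The synthesis median ran from 0.056 to 0.27. For cortex, 0 to 3 members were called with 1 library left out, the synthesis median ran from 0.021 to 0.21 and the transport median from -0.084 to 0.20. For cerebellum those ranges were -0.145 to -0.011 for the synthesis median and -0.196 to 0.042 for the transport median. Against sham hippocampus, the synthesis median of sham cerebellum was -0.35 with voom and -0.262 to 0.032 with 1 library left out. Against sham cortex, voom called 13 members with a synthesis median of -0.41, and with 1 library left out that median ran from -0.298 to -0.069 and the transport median from -0.156 to 0.044.

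With the replicate number as a block, the synthesis median was -0.075 for bulbectomy cerebellum and -0.27 for sham cerebellum against cortex, where 10 members were called, and the transport median was -0.17 for sham cerebellum against hippocampus, where the same 9 members were called. The rule for pairing (3 or more pairs, all over 0.1) was met only for sham cerebellum with sham hippocampus. Between bulbectomy and sham, correlations ran from -0.3 to 0.143 in hippocampus and -0.229 to 0.432 in cortex, and were 0.617 and 0.472 in the 2 pairs of cerebellum. Sham cerebellum and sham cortex had 0.478 to 0.591 in 4 numbers and -0.384 in number 5, and sham hippocampus and sham cortex -0.378 to 0.635.

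Some values that were not called turned sign. Apoe in hippocampus was -0.26 with the trend removed, -0.067 without sham 4 and -0.012 without sham 5. Abcg1 in cortex was -0.084 without bulbectomy 2, in a range up to 0.332 with 1 library left out. In cerebellum Apoe was 0.23 with the replicate block and 0.019, 0.048 and 0.042 without bulbectomy 1, sham 2 and sham 3, and Clu was 0.005 with upper-quartile scaling, 0.26 with the block, and 0.023, 0.009, 0.054 and 0.023 without bulbectomy 1, sham 2, sham 3 and sham 4, in a range from -0.141 with 1 library left out. The cause was not tested. Counts of members were equal or within 1.5 times in 214 cases and moved further in 10. Many of the 214 set 0 called against 0 called, and these say little about stability. The hippocampus library of 3255661 reads limits low genes such as Idi1.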
